A study of Mus musculus with 10 samples.

Results

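The 10 genes described here are the R-spondins *Rspo1*, *Rspo2* and *Rspo3*, the Wnt ligands *Wnt2b*, *Wnt4* and *Wnt5a*, and the secreted Wnt antagonists *Sfrp1*, *Sfrp2*, *Sfrp5* and *Dkk2*. They were chosen by symbol, with earlier results of these data known, out of 28753 genes listed in the matrices of the series. All 10 were present in every matrix. Single-cell RNA-seq of embryonic mouse pancreas gave 8 independent libraries, each a pool of pancreata. The 7 wild-type libraries were from Swiss Webster embryos of 3 stages, from E12.5 through E14.5 to E17.5. The version 1 kit of the 10x Chromium platform was used on all live cells, with 1 library each for the first and last stage and 2 batches for E14.5. The paper places the E12.5, E17.5 and second E14.5 libraries of this kit in batch 2, collected on another day than batch 1. The version 2 kit was used at each of the 3 stages on live cells depleted of CD140a+ cells, a sort against the Pdgfra protein that enriches epithelium and removes much of the mesenchyme. The eighth library was from E14.5 Fev-Cre;ROSA26mTmG embryos on a C57BL/6J background, in which cells with a history of *Fev*, a transcription factor gene of endocrine progenitors, turn from tdTomato to GFP, and both GFP+ and tdTomato+ live cells were collected. All Swiss Webster embryos lacked these alleles. The Fev-Cre library was also made with the version 2 kit, without the CD140a sort. Below, version 2 means the Swiss Webster libraries unless Fev-Cre is named. The E17.5 version 2 library was run in 2 technical wells, which were summed, and the Fev-Cre matrix aligned with the reporter sequences was used. Nothing separates embryos within a pool, so p-values measure the spread between pools. Only the 2 version 1 batches of E14.5 share stage, kit, sort and line, so that spread also holds such differences where a fit has no term for them.

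Wnt ligands are secreted lipid-modified proteins that bind Frizzled receptors together with Lrp5/6 or Ror co-receptors, and they signal through beta-catenin or through routes that act on cell shape and polarity. R-spondins bind Lgr receptors and take the ubiquitin ligases Rnf43 and Znrf3 off the cell surface, which keeps Frizzled receptors in place and strengthens a Wnt signal. Sfrp proteins bind Wnts outside the cell and most Dkk proteins bind Lrp5/6, and both families are classed as antagonists of the pathway. In the developing pancreas, the mesenchyme is needed for growth of the epithelium. The paper proposes that Wnt antagonists made by a mesenchymal cluster may regulate Wnt signalling there. The mesothelium is the epithelial sheet that covers the organ, and the paper describes its role in the pancreas as uncharacterized.

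Promoter sequence is shown for *Rspo1*, which was highest in mesothelial-like cells in each library, for *Dkk2*, which was lower there than in the other mesenchyme in each library with both, and for *Sfrp2*, which rose with stage in the mesothelial-like cells. RefSeq promoters on GRCm38.p6 were found for 6 of the 10 genes. The 250 bases before the annotated start are printed 5′ to 3′, with matches to any of 4 motifs in capitals, at chr4:124986180-124986429 (plus strand) for *Rspo1*, chr3:132085042-132085291 (plus strand) for *Dkk2* and chr3:83766071-83766320 (plus strand) for *Sfrp2*.
Rspo1: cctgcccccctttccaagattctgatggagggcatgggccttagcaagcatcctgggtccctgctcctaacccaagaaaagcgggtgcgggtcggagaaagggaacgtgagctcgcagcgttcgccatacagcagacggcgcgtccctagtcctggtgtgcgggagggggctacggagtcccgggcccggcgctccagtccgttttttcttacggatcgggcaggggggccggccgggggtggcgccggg
Dkk2: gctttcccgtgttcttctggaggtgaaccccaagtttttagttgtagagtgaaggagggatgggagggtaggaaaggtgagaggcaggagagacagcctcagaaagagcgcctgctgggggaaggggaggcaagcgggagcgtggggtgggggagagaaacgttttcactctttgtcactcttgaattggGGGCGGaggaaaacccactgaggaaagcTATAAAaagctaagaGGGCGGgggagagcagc
Sfrp2: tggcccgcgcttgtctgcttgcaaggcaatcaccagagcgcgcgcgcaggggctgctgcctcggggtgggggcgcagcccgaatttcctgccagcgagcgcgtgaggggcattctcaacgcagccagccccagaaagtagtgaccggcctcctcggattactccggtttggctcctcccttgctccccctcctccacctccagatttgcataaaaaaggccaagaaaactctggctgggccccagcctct
The motifs, searched on both strands, were CTTTGA for TCF/LEF, GTGGGAG for WT1, TATAAA for the TATA box and GGGCGG for the GC box. The *Dkk2* window held TATAAA 32 bases before the start and GGGCGG at 60 and 17 bases, whereas the *Rspo1* and *Sfrp2* windows held none of the 4. Among 32851 promoters, 13.8% held CTTTGA, 8.25% GTGGGAG, 12.4% TATAAA and 32.7% GGGCGG. The GC share was 66.8% for *Rspo1*, 55.6% for *Dkk2* and 63.6% for *Sfrp2*, against a median of 52.4%.

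On GRCm38 with GENCODE M21, *Rspo1* (ENSMUSG00000028871) lies at chr4:124986430-125009099 and *Wnt4* (ENSMUSG00000036856) at chr4:137277489-137299726. *Rspo2* (ENSMUSG00000051920) is at chr15:43020794-43170826 and *Rspo3* (ENSMUSG00000019880) at chr10:29452416-29535867. Chromosome 3 holds *Wnt2b* (ENSMUSG00000027840) at chr3:104945272-104961921, *Sfrp2* (ENSMUSG00000027996) at chr3:83766321-83774316 and *Dkk2* (ENSMUSG00000028031) at chr3:132085292-132180304. *Wnt5a* (ENSMUSG00000021994) is at chr14:28504750-28527448, *Sfrp1* (ENSMUSG00000031548) at chr8:23411502-23449632 and *Sfrp5* (ENSMUSG00000018822) at chr19:42197971-42202252. Each interval is the whole gene, exons and introns together.

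After barcodes with fewer than 200 genes were set aside, libraries or wells held 2309 to 13182 cells, with a median of 2952 to 11783 UMIs per cell. Before that step, over all barcodes, they held 15671934 to 127151679 UMIs. Haemoglobin genes took 60.9% of these UMIs in the version 1 E17.5 library and 31.8% and 31.7% in the E17.5 version 2 wells, with the barcodes later set aside included. Doublets, taken as cells that carried markers of compartments never found together, made up 0.0866% to 6.03% of a library and were removed, and pairs of wells within version 1, or within version 2 and Fev-Cre, shared at most 1.79% of the smaller one's barcodes. Classes were named "like" from marker genes after clustering, and neither the 10 genes nor 66 others of the Wnt pathway took part in the clustering. The limits used for naming were chosen with the clusters in view. Mesothelial-like cells numbered 6171, other mesenchyme 11612 and epithelium 25651 over the libraries. *Upk3b*, a mesothelial membrane protein gene, was at 341 to 2103 CPM (UMIs scaled to a fixed total for each class and library) in mesothelial-like cells and at 0 to 8.09 in other mesenchyme. *Wt1* was at 231 to 555 against 44.4 to 160, and *Epcam* was at 657 to 992 in the epithelium against 2.46 to 23.1 in other mesenchyme. Other mesenchyme is what was left after mesothelial-like and vascular smooth muscle-like (VSM-like) cells were named, and its clusters led by *Rgs5* and *Pid1* or by *Figf* still carried smooth muscle genes. *Pdgfra* was at 36.2 to 80.4 CPM there in the version 1 and Fev-Cre libraries and at 10.9 and 18.8 in the version 2 libraries, where CD140a+ cells had been depleted. Stromal clusters with markers of both kinds (999, 63 and 7 cells in the version 2 libraries by stage) and stromal clusters with *Epcam* at 200 CPM or more (310, 40 and 7 cells in the same libraries and 20 in Fev-Cre) were kept out of either class by thresholds set after they were seen. Markers of both kinds is a label for clusters with a mesothelial score of at least 0.5 that passed as neither mesothelial-like nor VSM-like. No mesenchyme score was required of them.

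Levels below are CPM of the UMIs summed over the cells of a class in a library, and where all are listed the version 1 libraries come first by stage, with batch 1 of E14.5 before batch 2, then the version 2 libraries by stage, and Fev-Cre last. The kits count tags from 3′ ends, and levels are compared between cells and not between genes. Some sums were thin. The 47 mesothelial-like cells of version 1 E17.5 held 175493 UMIs, so 3 counts there are 17.1 CPM, and the 22 other mesenchyme cells of version 2 E14.5 held 106208 UMIs, so 3 counts there are 28.2 CPM. The 54 VSM-like cells of E14.5 batch 1 held 175261 UMIs. The version 2 E17.5 library held too few other mesenchyme cells to use.

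R-spondin UMIs lay mainly in the mesothelium and the mesenchyme, and *Rspo1* separated the mesothelial-like cells from every other named class. Its levels there were 90.1, 171, 122, 598, 80.5, 106, 149 and 102 CPM. In other mesenchyme they were 2.85, 8.51, 7.02, 18.7, 1.961, 9.42 and 6.64 CPM in the 7 libraries with that class, which left out version 2 E17.5. The ranges did not overlap, and the highest level in any other named class, 31.6 CPM in VSM-like cells of E14.5 batch 2, was below the lowest mesothelial-like level. The stromal cells with markers of both kinds lay between, at 56.8 and 42.6 CPM in version 2 E12.5 and E14.5. Shares of cells with a UMI were taken over the cells with at least 2000 UMIs, each thinned to 2000. Of such mesothelial-like cells, 13.8% to 66.7% held an *Rspo1* UMI (median 18.6%), against at most 2.02% in other mesenchyme. In immune-like and erythroid-like cells, taken as the background, it was at most 0.0635% and 0.14%, at median depths of 2295 to 8206.5 and 4440.5 to 13159 UMIs per cell, against 3344.5 to 10900 in mesothelial-like cells.

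*Rspo3*, the R-spondin known for its part in vessel development, was found in both classes. It was at 116, 47.0, 78.9, 11.4, 124, 55.2, 8.08 and 84.2 CPM in mesothelial-like cells. In other mesenchyme it was at 20.4, 55.6, 72.5, 69.3, 8.74, 113 and 43.2 CPM, without version 2 E17.5. The ranges overlapped, with the mesothelial-like cells higher in both E12.5 libraries, in E14.5 batch 2 and in Fev-Cre. VSM-like cells held 8.33 to 79.8 CPM, and endothelial-like cells at most 12.51 CPM, on 2 UMIs.

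*Rspo2*, known for its role in limb and lung growth, was near the floor throughout. Mesothelial-like cells held 1.90, 3.71, 6.43, 0, 2.65, 4.53, 1.41 and 0.183 CPM, and other mesenchyme at most 1.42 CPM. In the 25651 epithelial cells, 3 UMIs in 270741907 were of *Rspo2*.

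**Figure D1:**
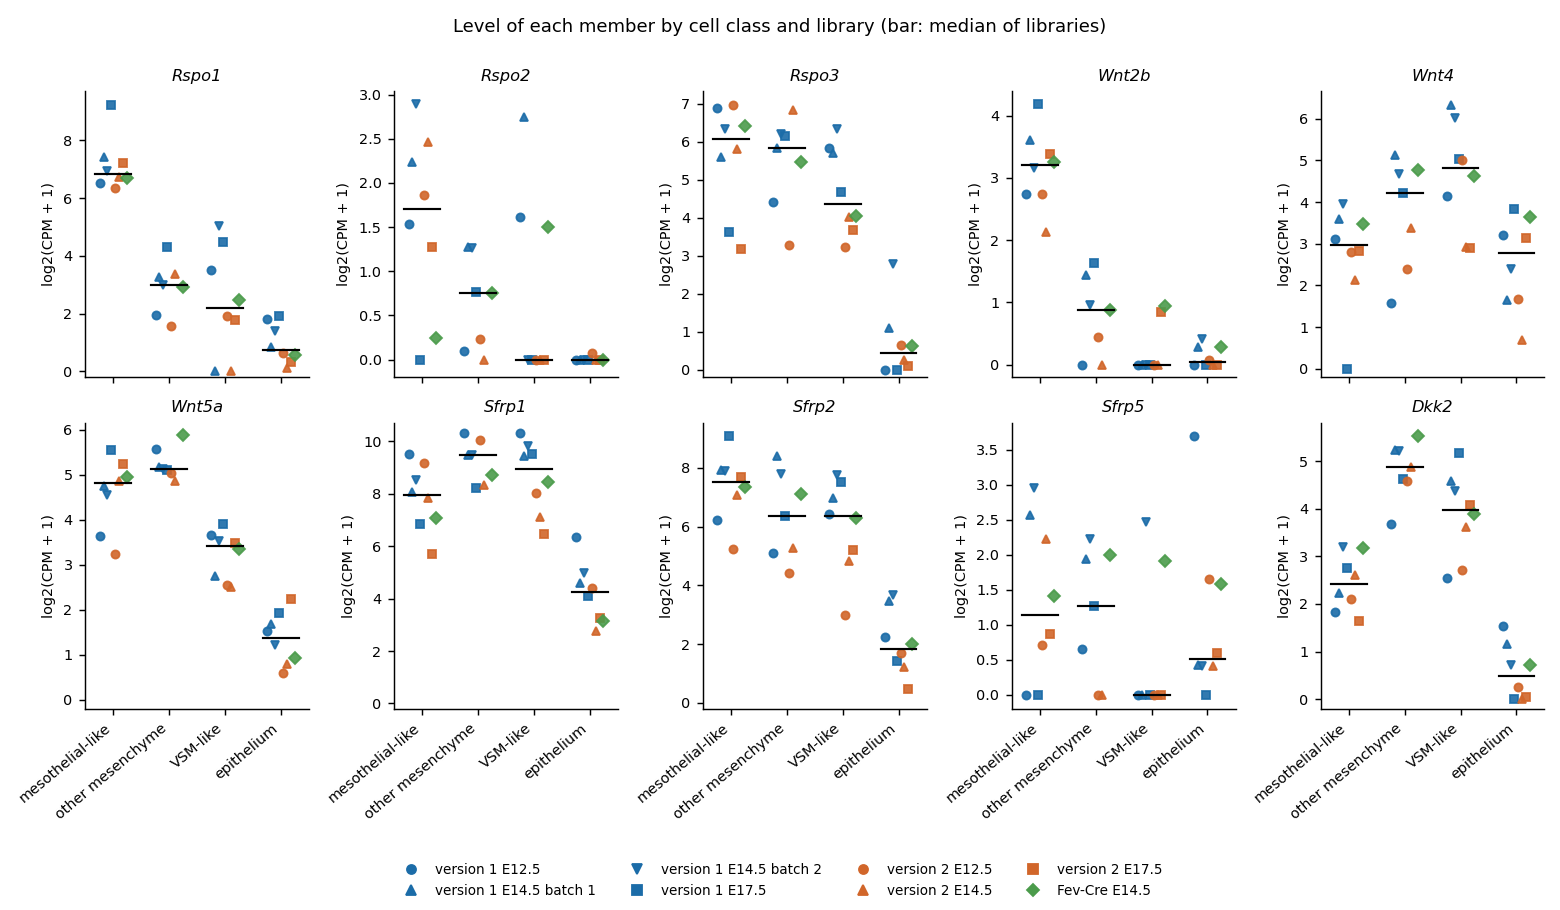
Level of each of the 10 genes, as log2(CPM + 1) of summed UMIs, in mesothelial-like cells, other mesenchyme, VSM-like cells and epithelium, with 1 point per library and a bar at the median of the libraries. *Rspo1* and *Wnt2b* points of mesothelial-like cells lie above those of the other classes shown, *Dkk2* and *Sfrp1* are highest in other mesenchyme, and *Wnt4* spreads over all 4 classes.

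Among the ligands, *Wnt2b*, a ligand of the beta-catenin route, followed the mesothelium. Its levels in mesothelial-like cells were low but present in each library, at 5.71, 11.1, 7.89, 17.1, 5.72, 3.40, 9.37 and 8.59 CPM. In other mesenchyme they ran from 0 to 2.11 CPM with a median of 0.830, below the lowest mesothelial-like level. At 2000 UMIs a cell, 0.857% to 2.22% of mesothelial-like cells held a *Wnt2b* UMI.

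*Wnt5a*, the main ligand of the routes that act on cell movement and polarity, was found in both mesenchymal classes. In other mesenchyme it was at 46.5, 35.2, 34.1, 33.4, 32.1, 28.2 and 58.2 CPM. Mesothelial-like cells held 11.4, 25.9, 22.5, 45.6, 8.50, 28.0, 36.7 and 29.8 CPM. The ranges overlapped, with the mesothelial-like level lowest at E12.5 in both kits. The version 2 E14.5 value of other mesenchyme rested on 3 UMIs. VSM-like cells were lower, at 4.71 to 14.0 CPM, which did not reach the other mesenchyme range.

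*Wnt4*, a ligand known from kidney and gonad development, was highest in VSM-like and alpha-like cells and had a median of 0 CPM in endothelial-like cells. In VSM-like cells it was at 16.6, 79.9 (on 14 UMIs), 63.3, 31.5, 31.2, 6.60, 6.44 and 23.8 CPM. Other mesenchyme held 1.99, 33.8, 24.7, 17.6, 4.28, 9.42 and 26.1 CPM, lowest at E12.5 in both kits. Mesothelial-like cells held 0 to 14.6 CPM with a median of 6.84. Alpha-like endocrine cells, at a median of 25.5 CPM over 7 libraries, came between VSM-like cells and other mesenchyme, and neighbours in that order overlapped.

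The antagonists were highest in the stroma, except for *Sfrp5*. At 2000 UMIs a cell, 34.7% to 88.7% of other mesenchyme cells held an *Sfrp1* UMI (median 65.8%), against at most 7.5% of immune-like and 5.78% of erythroid-like cells. Its level in other mesenchyme was 1286, 719, 722, 299.5, 1058, 320.1 and 420.5 CPM. Mesothelial-like cells held 740, 267, 364, 114, 579, 229, 50.5 and 133 CPM, less than other mesenchyme in each of the 7 libraries with both, although the ranges overlapped across stages. VSM-like cells, at 86.7 to 1281 CPM, spanned both.

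*Sfrp2* was spread over the stroma, at 74.2, 242, 238, 547, 36.9, 133, 206 and 162 CPM in mesothelial-like cells. In other mesenchyme it was at 33.2, 335, 222, 80.9, 20.3, 37.7 and 138 CPM. The classes overlapped, and both were lowest at E12.5 in either kit. *Dkk2*, which binds Lrp5/6, was at 11.9, 36.6, 36.1, 23.6, 22.8, 28.2 and 45.0 CPM in other mesenchyme. Mesothelial-like cells held 2.12 to 8.18 CPM (median 4.402), below the lowest value of other mesenchyme. *Sfrp5* was low in most classes: its highest medians were 2.65 CPM in alpha-like cells and 1.90 in neural-like cells. Its highest single value was 96.6 CPM, on 5 UMIs, in the 20 neural-like cells of version 1 E17.5, and 3 of the 8 neural-like sums held none.

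Which of these secreted factors set the mesothelium apart from the rest of the mesenchyme was tested on the UMI sums of 7 libraries, with the library as a block. *Rspo1* and *Wnt2b* were higher in mesothelial-like cells in each library, *Rspo2* was higher by the test at very low levels, and *Dkk2*, *Sfrp1* and *Wnt5a* were lower. By these calls alone, 2 R-spondins and a beta-catenin ligand were on the mesothelial side, and 2 antagonists and *Wnt5a* on the other. The antagonist *Sfrp2* leaned to the mesothelial side without a call (log2 difference 0.71). Of the 10 genes, 3 were called higher and 3 lower (edgeR quasi-likelihood test, Benjamini-Hochberg adjusted p under 0.05 and at least 2-fold), where 11.5% of the 12586 genes tested were called higher, 7.78% lower and 19.2% either way. The median log2 difference of the 10 genes was 0.52, against -0.03 over all genes.

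*Rspo1* was 22.1-fold higher (log2 difference 4.47 ± 0.16 SE, edgeR adjusted p = 5.92e-11), in 7 of 7 libraries. It was called in all 18 alternative settings, at 3.66 to 4.62 on the log2 scale. *Wnt2b* was 11-fold higher (3.46 ± 0.40, adjusted p = 5.93e-06), also in 7 of 7. *Dkk2* was 5.73-fold lower (log2 difference -2.52 ± 0.16, adjusted p = 1.28e-08), in each of the 7 libraries.

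*Sfrp1* was 2.11-fold lower (-1.08 ± 0.15, edgeR adjusted p = 4.81e-05), in 7 of 7 libraries. *Wnt5a* was also 2.11-fold lower (-1.07 ± 0.23, adjusted p = 0.00145), higher in 1 of 7 libraries, the version 1 E17.5 one. Both sat at the 2-fold limit, and under some alternatives they fell below it. *Wnt5a* did so in 8 of 18, with -0.85 in the version 1 libraries alone. *Sfrp1* did so in 4 of 18, with -0.98 in the libraries of the version 2 kit alone, Fev-Cre included. *Rspo2* was 3.48-fold higher (1.80 ± 0.57, adjusted p = 0.0214), in 5 of 7 libraries. The *Rspo2* call was lost without E14.5 batch 2 (1.60, adjusted p = 0.12) and without version 2 E12.5 (1.48, adjusted p = 0.0796). It was also lost in the libraries of the version 2 kit alone, Fev-Cre included (1.27, adjusted p = 0.268).

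The other 4 genes were not called. *Rspo3* had a log2 difference of 1.06 ± 0.45 (edgeR adjusted p = 0.0766), higher in 4 of 7 libraries. It passed without version 1 E17.5 (1.29, adjusted p = 0.0334). It also passed in the libraries of the version 2 kit alone, Fev-Cre included (1.87, adjusted p = 0.00268). *Sfrp2* had 0.71 ± 0.27 (adjusted p = 0.0535), higher in 6 of 7. *Wnt4* had -0.64 ± 0.33 (adjusted p = 0.148) and *Sfrp5* 0.34 ± 0.46 (adjusted p = 0.613).

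**Figure D2:**
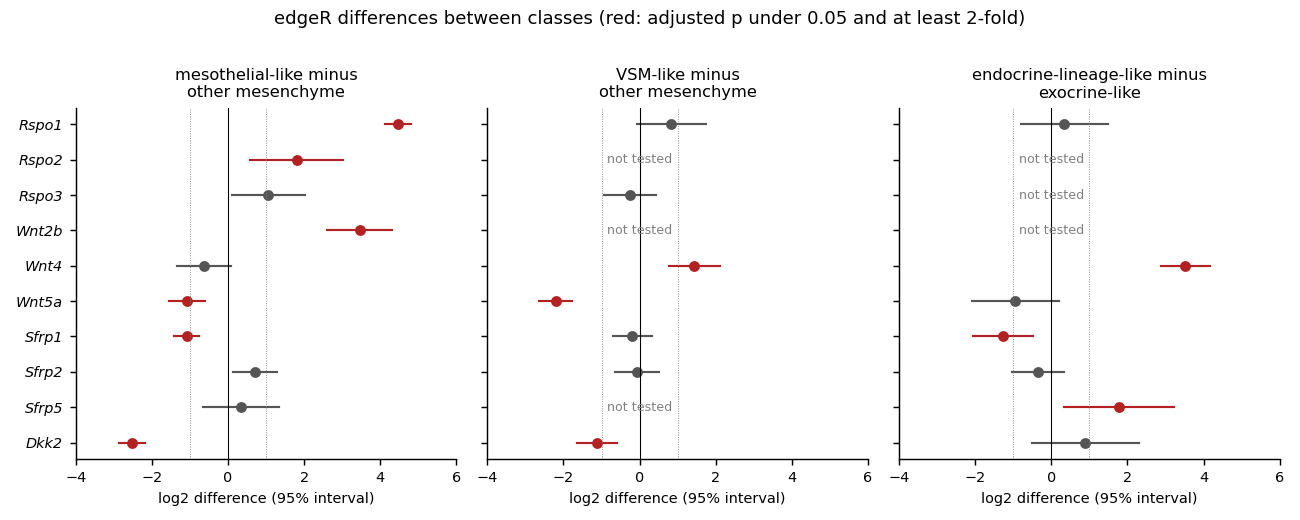
Log2 differences of the members from the edgeR fits, with 95% intervals, for mesothelial-like cells minus other mesenchyme, VSM-like cells minus other mesenchyme, and endocrine-lineage-like minus exocrine-like epithelium; red marks an adjusted p under 0.05 and at least 2-fold. *Rspo1* lies at 4.47 and *Dkk2* at -2.52 in the first panel, *Wnt5a* at -2.20 in the second and *Wnt4* at 3.52 in the third.

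The rest of the pathway was read from lists of 66 genes. Between the same 2 classes, 4 of 7 tested Wnt ligands were higher in mesothelial-like cells, the largest being *Wnt3* (log2 5.25), *Wnt7b* (3.68) and *Wnt9a* (2.47), and none was lower. Of 13 tested receptors 4 were higher, led by *Fzd6* (3.62), *Fzd4* (3.10) and *Fzd5* (1.97), and the Wnt5a co-receptor *Ror2* was lower (-1.54). *Rnf43*, a ligase that R-spondins act on, was the 1 of 3 tested R-spondin receptors and ligases that passed (2.47). Among 5 other secreted antagonists *Sostdc1* was higher (2.44), and *Frzb* (-2.92) and *Notum* (-2.40) were lower. *Kremen1*, a Dkk co-receptor, was lower (-1.57), *Wls*, which carries Wnts to the cell surface, was higher (1.06) and the Wnt acyltransferase *Porcn* was lower (-1.01). None of 9 transducers of the signal was called, and of 6 feedback targets *Sp5* was higher (1.93) and *Nkd2* lower (-3.48).

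The split between stroma and epithelium was wider. In other mesenchyme, 9 of the 10 genes were higher than in the epithelium and none was lower, where 34.3% of 14198 genes tested were called, 15.7% higher and 18.6% lower. In mesothelial-like cells 8 of 10 were higher, where 30.5% of 13676 genes tested were called, 15.2% in each direction. The median log2 difference of the 10 genes was 4.41 for other mesenchyme and 4.86 for mesothelial-like cells, against -0.02 and -0.07 over all genes. The 2 comparisons share the epithelial sums, so they are not independent. Because the 10 genes were chosen with earlier results of these data known, the shares over all genes are given as a description.

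Epithelial levels were low. *Rspo1* was at 0.0890 to 2.77 CPM, *Rspo3* at 0 to 5.88, *Wnt5a* at 0.519 to 3.75 and *Dkk2* at 0 to 1.89, all below the lowest level in other mesenchyme apart from *Rspo1*, whose ranges overlapped. The highest *Rspo1* and *Rspo3* values came mostly from outside the exocrine-like and endocrine-lineage-like cells. The 2.77 CPM of *Rspo1*, in version 1 E17.5, was 5 UMIs, none of them in those classes, and of the 18 *Rspo3* UMIs behind 5.88 CPM, in E14.5 batch 2, 2 were in exocrine-like and 1 in endocrine-lineage-like cells. In those classes *Rspo1* reached 1.46 and 1.57 CPM and *Rspo3* 1.46 and 0.664. An unnamed epithelial cluster of 21 cells in batch 2 was at 79.8 CPM of *Rspo3*, and clusters of mixed markers in version 2 and Fev-Cre, with 11 to 196 cells a library, were not counted as epithelium. *Sfrp1* was at 5.88 to 79.95 CPM and *Sfrp2* at 0.374 to 11.8. In immune-like cells *Sfrp1* was at 0.996 to 73.5 CPM, a range that overlapped the epithelial one.

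Against the epithelium, *Dkk2* was 64.2-fold higher in other mesenchyme (log2 6.005 ± 0.50, edgeR adjusted p = 9.31e-07). *Rspo3* (5.51 ± 0.53), *Wnt5a* (5.08 ± 0.33), *Sfrp1* (4.95 ± 0.24) and *Sfrp2* (4.51 ± 0.33) followed, each in 7 of 7 libraries. *Rspo1* (2.68 ± 0.45), *Wnt2b* (2.37 ± 0.52) and *Rspo2* were called as well, and *Sfrp5* was not (adjusted p = 0.973). *Wnt4* just passed (1.41 ± 0.53, adjusted p = 0.0389, higher in 6 of 7), and its call was lost in 7 of 16 alternatives. In mesothelial-like cells *Rspo1* was 241-fold above the epithelium (7.91 ± 0.40, adjusted p = 2.79e-08), and *Rspo3* (6.70 ± 0.49), *Wnt2b* (6.63 ± 0.62), *Sfrp2* (5.67 ± 0.57), *Wnt5a* (4.05 ± 0.29), *Dkk2* (4.04 ± 0.76) and *Sfrp1* (3.72 ± 0.30) were each higher in 8 of 8 libraries. *Rspo2* was called there too, in 7 of 8. The *Wnt4* difference of 0.73 ± 0.42 (adjusted p = 0.163) and that of *Sfrp5* (0.61 ± 0.95, adjusted p = 0.616) were not called.

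All 4 tested R-spondin receptors and ligases were lower in other mesenchyme than in the epithelium: *Rnf43* (log2 -4.06), *Lgr5* (-3.33), *Znrf3* (-1.49) and *Lgr4* (-1.42). *Lgr4* was at 3.78 to 21.5 CPM in the epithelium and at 1.35 to 9.42 in other mesenchyme. *Lgr6* was not tested and had medians of 0.0312 CPM in the epithelium and 0.468 in other mesenchyme. In the mesothelial-like cells 2 of 4 were lower than in the epithelium, *Rnf43* (-2.20) and *Lgr4* (-1.48). The remaining R-spondin, *Rspo4*, was lower in other mesenchyme (-2.33). By contrast, 5 of 6 tested feedback targets of the beta-catenin route were higher in other mesenchyme, led by *Lef1* (5.33), *Nkd2* (4.87) and *Nkd1* (3.36), and 3 of 5 were higher in mesothelial-like cells, *Lef1* (5.50), *Nkd1* (3.15) and *Axin2* (1.47). Of the other ligands, 5 of 6 tested were higher in other mesenchyme, led by *Wnt11* (5.69), *Wnt2* (4.37) and *Wnt6* (3.29), and *Wnt7b* was lower (-5.32).

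VSM-like cells, the contractile cells around vessels, differed from other mesenchyme in *Wnt5a*, *Wnt4* and *Dkk2*. *Wnt5a* was 4.60-fold lower (log2 -2.20 ± 0.21, edgeR adjusted p = 1.68e-06), below other mesenchyme in 7 of 7 libraries, and kept its call in all 16 alternatives. *Wnt4* was 2.71-fold higher (1.44 ± 0.32, adjusted p = 0.0077), in 5 of 7. Its call was lost in 2 of 16 alternatives. These were the libraries of the version 2 kit alone, Fev-Cre included (1.16, adjusted p = 0.195), and no replicate block (0.92, adjusted p = 0.846). *Dkk2* was 2.18-fold lower (-1.12 ± 0.25, adjusted p = 0.00822), higher in 1 of 7, and its call was lost in 5 alternatives, among them version 1 alone (-0.66, adjusted p = 0.305). That makes 1 of 7 tested members higher and 2 lower, where 4.21% of 10678 genes tested were called, 2.87% higher and 1.35% lower. *Rspo1* (0.83 ± 0.43), *Rspo3* (-0.25 ± 0.33), *Sfrp1* (-0.19 ± 0.25) and *Sfrp2* (-0.08 ± 0.27) were not called, and *Rspo2*, *Wnt2b* and *Sfrp5* had too few UMIs to be tested. *Rspo3* (-1.34) and *Sfrp1* (-1.08) each gained a call, as lower, in 1 of 16 alternatives. The Fev-Cre VSM-like cells fell into 2 clusters, with *Wnt4* at 41.5 CPM in the 72 cells led by *Acta2* and *Stmn2* and at 5.56 in the 51 led by *Thy1* and *Fam162b*. Other mesenchyme holds clusters with smooth muscle genes and, in version 1, the cluster led by *Cox4i2* and *Ndufa4l2*, genes known from pericytes. Their part in these differences was not tested.

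Whether the factors change as the organ grows was asked with a slope of log2 level per embryonic day in the Swiss Webster libraries, with the kit as a term. Dissociation was longer at later stages in version 1 and is described as the same in version 2, where each stage also had its own day, so stage cannot be told apart from dissociation or, in version 2, from day. In mesothelial-like cells *Rspo1*, *Wnt5a* and *Sfrp2* rose from E12.5 to E17.5, and *Rspo3* and *Sfrp1* fell. The stages lay largely in different clusters of the class. In version 1 a cluster led by *Upk3b* and *Klk13* held 337 of 353 cells at E12.5, one led by *Upk3b* and *Tm4sf5* held 219 of 224 and 588 of 604 at E14.5, and one led by *Upk3b* and *Dmkn* held 41 of 47 at E17.5. In version 2 the largest clusters were led by *Lhx9* at E12.5 (819 of 2149 cells) and by *Igfbp2* and *Osr1* at both later stages (485 of 700 and 604 of 1458). Genes of other stroma moved with stage in the same sums: *Acta2*, a smooth muscle actin gene, was at 32.4 and 2.72 CPM at E12.5 and 319 and 160 at E17.5, and the collagen gene *Col3a1* at 405 and 277 and then 2986 and 2309. Their part in the slopes was not tested. Of the 10 genes tested 3 were called higher and 2 lower with stage (edgeR adjusted p under 0.05), where 14.1% of 11805 genes were called, 9.22% rising and 4.84% falling.

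*Rspo3* fell by 0.72 ± 0.09 per day on the log2 scale (edgeR adjusted p = 0.000187). It went from 116 and 124 CPM at E12.5 to 47.0 to 78.9 at E14.5 and to 11.4 and 8.08 at E17.5, with no overlap between stages. *Sfrp1* fell by 0.62 ± 0.07 per day (adjusted p = 8.95e-05), from 740 and 579 CPM to 114 and 50.5, also without overlap. Both calls held in all 15 alternative fits of the slope.

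*Sfrp2* rose by 0.52 ± 0.08 per day (edgeR adjusted p = 0.000659), from 74.2 and 36.9 CPM at E12.5 to 547 and 206 at E17.5, and this call held in all 15 as well. *Wnt5a* rose by 0.41 ± 0.09 (adjusted p = 0.00808), from 11.4 and 8.50 CPM to 45.6 and 36.7, and without version 2 E12.5 the slope was 0.29 (adjusted p = 0.122). *Rspo1* rose by 0.39 ± 0.08 (adjusted p = 0.00529), which leaned on the 598 CPM of the 47 version 1 E17.5 cells: without that library the slope was 0.23 (adjusted p = 0.0601). *Wnt2b* (0.21 ± 0.10, adjusted p = 0.21), *Wnt4* (0.02 ± 0.12), *Rspo2* (-0.12 ± 0.19), *Sfrp5* (0.11 ± 0.30) and *Dkk2* (-0.03 ± 0.16) were not called.

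**Figure D3:**
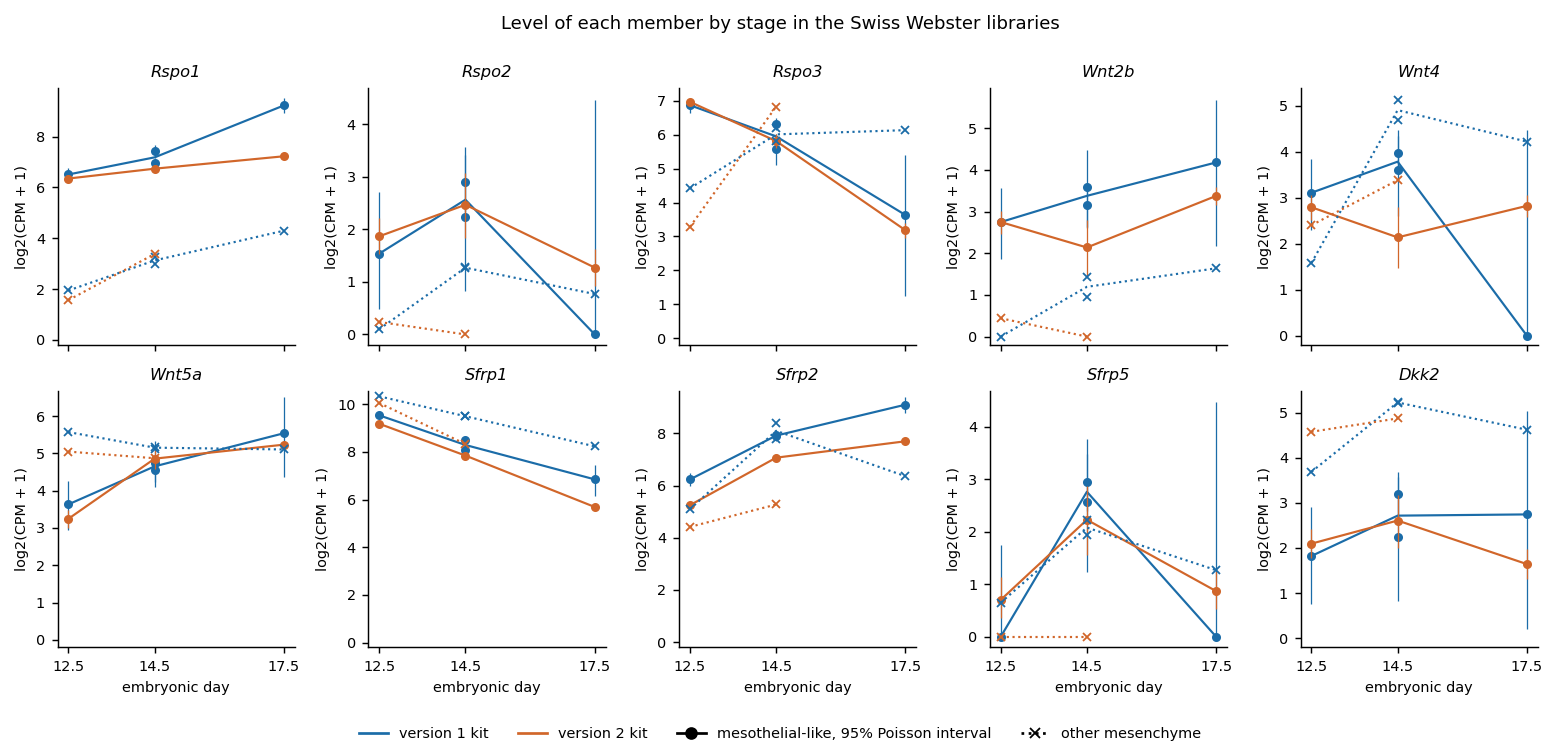
Level of each member, as log2(CPM + 1), against embryonic day in the Swiss Webster libraries, with circles and full lines for mesothelial-like cells (bars: exact 95% Poisson intervals, counting error only) and crosses and dotted lines for other mesenchyme, in blue for version 1 and orange for version 2. Mesothelial-like *Rspo3* falls from 116 and 124 CPM to 11.4 and 8.08, and the *Rspo3* lines of the 2 classes cross.

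In other mesenchyme, with 6 libraries and a single E17.5 value per gene, 1 of 8 tested members was called with stage, where 4.82% of 11675 genes were called, 3.7% rising and 1.12% falling. This class also differed in its clusters between stages. In version 1 the largest cluster was led by *Syt6* and *Rgcc* at E12.5 (739 of 3196 cells), by *Rgs5* and *Pid1* at E14.5 (365 of 1384 and 779 of 2701) and by *Mfap5* and *Scara5* at E17.5 (251 of 1016), and version 2 was clustered apart. *Rspo1* rose by 0.60 ± 0.11 per day (edgeR adjusted p = 0.0188), from 2.85 and 1.961 CPM at E12.5 to 18.7 at E17.5. Its call was lost without version 1 E12.5 (adjusted p = 0.187), E14.5 batch 2 (0.0755) or version 1 E17.5 (0.294). *Sfrp1* had -0.43 ± 0.11 (adjusted p = 0.0547), *Rspo3* 0.50 ± 0.18 (adjusted p = 0.175) and *Wnt4* 0.47 ± 0.30 (adjusted p = 0.503). The *Sfrp1* slope gained a call in 4 of 14 alternatives, and was -0.68 to -0.36 over all of them. The slopes of *Wnt5a* (-0.04 ± 0.07), *Sfrp2* (0.13 ± 0.32), *Sfrp5* (0.26 ± 0.31) and *Dkk2* (0.19 ± 0.14) were not called. Without the version 1 E17.5 library the slopes of *Rspo3* (1.04, adjusted p = 0.000898), *Wnt4* (1.65, adjusted p = 0.000259) and *Sfrp2* (1.199, adjusted p = 0.000509) passed, which then cover E12.5 to E14.5.

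The difference between mesothelium and other mesenchyme itself changed with stage for 3 members, tested on 6 libraries. For *Rspo3* mesothelial-like cells were higher at E12.5, with 116 against 20.4 CPM and 124 against 8.74. At E14.5 the order was mixed, at 47.0 against 55.6, 78.9 against 72.5 and 55.2 against 113, the last in 22 other mesenchyme cells. In Fev-Cre, which was not in this test, mesothelial-like cells were higher. At E17.5, in a single library, mesothelial-like cells held 11.4, on 2 UMIs, against 69.3. The log2 difference fell by 1.49 ± 0.13 per day (edgeR adjusted p = 2.31e-08), and by 1.54 without the thin version 1 E17.5 library. It was called in all 14 alternative fits of the slope, at -1.80 to -0.99 per day.

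For *Wnt4* the difference fell by 0.99 ± 0.22 per day (edgeR adjusted p = 0.00658), with the mesothelial-like cells at 7.61 against 1.99 CPM and 5.92 against 4.28 at E12.5 and lower than other mesenchyme in the 3 Swiss Webster E14.5 libraries and at E17.5. The version 2 E14.5 sum of other mesenchyme, with fewer than 3 *Wnt4* UMIs, and the E17.5 sum of mesothelial-like cells were thin. For *Wnt5a* the difference rose by 0.55 ± 0.11 per day (adjusted p = 0.00251), from 11.4 against 46.5 CPM and 8.50 against 32.1 at E12.5 to 45.6 against 33.4 at E17.5. These were 2 members called lower and 1 higher of 10 tested, where 3.46% of 12376 genes were called, 1.59% lower and 1.87% higher. The *Wnt4* and *Wnt5a* calls were lost when the stromal cells with *Epcam* were counted as other mesenchyme (adjusted p = 0.128 and 0.343) or the cells with markers of both kinds were (0.371 and 0.157), and that of *Wnt4* also without version 1 E12.5 (-0.76, adjusted p = 0.0581). *Rspo1* had -0.04 ± 0.08 per day, with a 95% interval of -0.21 to 0.13, and was not called. Its slope was -0.43 without version 1 E17.5 and 0.40 with the cells of both marker kinds counted as other mesenchyme, so a change in either direction was not settled. *Sfrp2* (0.26 ± 0.12 per day, edgeR adjusted p = 0.37) was not called, but its slope was called in 4 of 14 alternatives, with no filter (0.24) and without version 1 E12.5 (0.41), E14.5 batch 2 (0.29) or version 2 E12.5 (0.33), and was -0.48 without version 1 E17.5 (adjusted p = 0.076). *Rspo2* (-1.04 ± 0.47, adjusted p = 0.342), *Wnt2b* (-0.49 ± 0.29), *Sfrp1* (-0.10 ± 0.10), *Sfrp5* (-0.20 ± 0.46) and *Dkk2* (0.18 ± 0.19) were not called either.

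Other pathway genes moved with stage in the mesothelial-like cells: *Wnt2* (1.11 per day), *Wnt6* (0.42) and *Wnt9a* (0.25) rose, and *Wnt3* (-1.46) and *Wnt5b* (-0.36) fell. *Dkk3*, an outlying relative of the Dkk antagonists, rose (0.96), as did the receptors *Ror1* (0.40) and *Fzd1* (0.39) and the feedback gene *Nkd1* (0.28). In other mesenchyme *Lef1* fell (-0.88), and *Wnt9a* (0.67) and *Dkk3* (0.62) rose.

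Within the epithelium, *Wnt4* was higher in the endocrine lineage than in exocrine-like cells. Endocrine-lineage-like cells (Ngn3+-like, Fev+-like and hormone+ cells) held 15.7, 10.3, 7.31, 20.5, 9.13, 2.04, 21.1 and 22.8 CPM. Exocrine-like cells held 2.43, 0.531, 0, 3.86, 0.786, 0.131, 0.784 and 2.46 CPM, lower in each library. *Wnt4* was 11.5-fold higher in the endocrine lineage (log2 3.52 ± 0.29, edgeR adjusted p = 1.83e-06), in 8 of 8 libraries, and the call held in all 16 alternatives.

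The highest epithelial median was that of alpha-like cells, the glucagon-producing class, at 18.8, 27.2, 17.4, 7.53, 25.5, 67.7 and 39.1 CPM in the 7 libraries that held at least 20 of them. At 2000 UMIs a cell, 2.99% to 12.6% of alpha-like cells held a *Wnt4* UMI (median 5.17%), against at most 0.268% of immune-like and 1.0% of erythroid-like cells. Fev+-like cells held 0 to 55.0 CPM, which overlapped alpha-like cells. Ngn3+-like cells, at 0.397 to 11.4 CPM, and beta-like cells, at 0 to 13.8, overlapped the range of exocrine-like cells. Of the 1175 *Wnt4* UMIs of the endocrine lineage over the libraries, 595 were in alpha-like and 47 in Ngn3+-like cells.

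*Sfrp5*, an antagonist known from the foregut endoderm, was 3.42-fold higher in the endocrine lineage (log2 1.77 ± 0.66, edgeR adjusted p = 0.0351). Endocrine-lineage-like cells held 9.42, 0.936, 0.664, 0, 2.87, 0.747, 1.45 and 3.38 CPM, and exocrine-like cells 15.8, 0.265, 0, 0, 1.60, 0.235, 0.0224 and 0.238. It was higher in 6 of 8 libraries, not in version 1 E12.5, where both were at their highest, nor in version 1 E17.5, where both were at 0, and the call was lost in 6 of 14 alternatives. *Sfrp1* was at 53.4, 14.0, 4.65, 1.02, 16.9, 3.87, 1.41 and 5.46 CPM in the endocrine lineage and at 40.1, 18.4, 12.4, 27.0, 22.5, 6.47, 10.5 and 9.78 in exocrine-like cells, lower in the former in all but version 1 E12.5. The difference was 2.40-fold (-1.27 ± 0.36, edgeR adjusted p = 0.00875). Its call was lost in 4 of 16 alternatives, among them doublets kept (-0.72, adjusted p = 0.11) and version 1 alone (-0.93, adjusted p = 0.156). Other mesenchyme held 299.5 to 1286 CPM of *Sfrp1* and immune-like cells up to 73.5, and the part of free RNA in these low levels was not tested.

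That made 2 of 7 tested members higher and 1 lower, where 32.9% of 14599 genes tested were called, 17.6% higher and 15.2% lower. *Wnt5a* (-0.94 ± 0.52, adjusted p = 0.135), *Rspo1* (0.34 ± 0.52), *Sfrp2* (-0.36 ± 0.31) and *Dkk2* (0.89 ± 0.62) were not called, and *Rspo2*, *Rspo3* and *Wnt2b* had too few UMIs to be tested. Without version 2 E17.5, or in version 1 alone, 1 of the 3 calls was left.

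**Figure D4:**
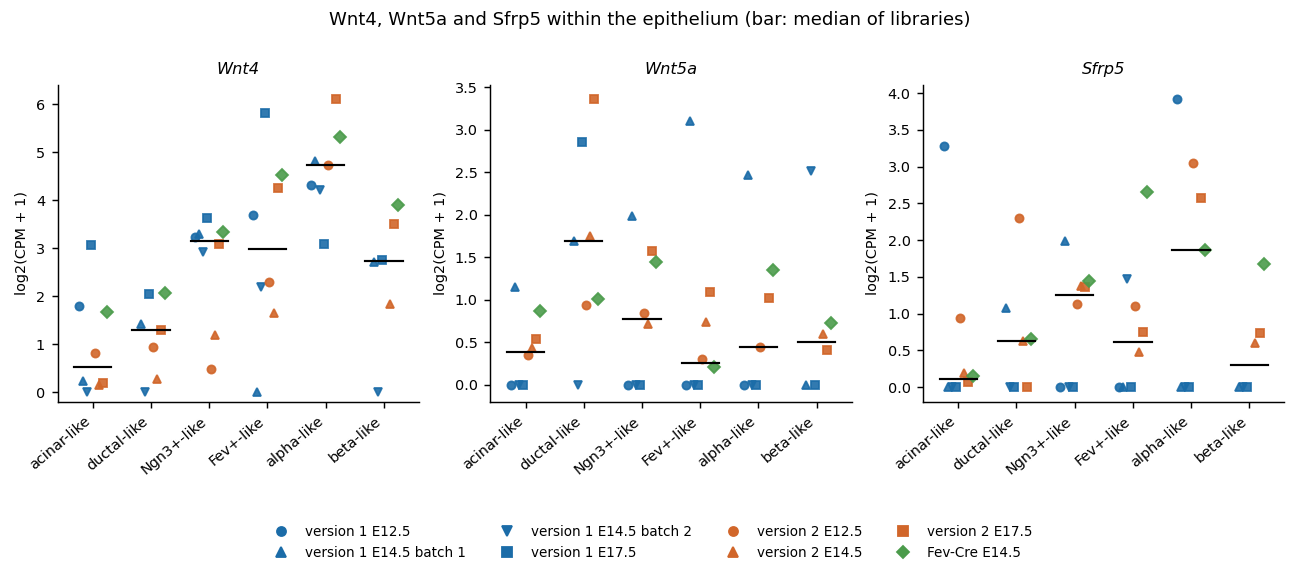
Levels of *Wnt4*, *Wnt5a* and *Sfrp5*, as log2(CPM + 1), in 6 epithelial classes, with 1 point per library and a bar at the median. *Wnt4* is highest in alpha-like cells (7.53 to 67.7 CPM), *Wnt5a* has its highest bar in ductal-like cells, and most *Sfrp5* points are near 0.

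*Rspo4*, the R-spondin outside the 10 genes, was also on the endocrine side (log2 6.01, higher in 8 of 8 libraries). Of 4 tested R-spondin receptors and ligases 3 were lower in the endocrine lineage, *Lgr5* (-2.20), *Rnf43* (-2.07) and *Lgr4* (-1.60). Of 14 receptors 7 were lower, led by *Fzd5* (-2.25), *Fzd4* (-1.79) and *Fzd1* (-1.74). The feedback genes *Sp5* (-3.06) and *Tcf7* (-2.10) were lower, and the antagonists *Wif1* (3.03) and *Frzb* (2.98) and the Dkk co-receptor *Kremen1* (1.42) were higher. *Wnt3* (3.38) and *Wnt9a* (2.06) were higher and *Wnt7b* (-2.79) lower.

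In ductal-like cells, the duct-forming and progenitor part of the epithelium, 3 members could be tested for a trend with stage, and *Wnt5a* was called. It was at 2.22, 0 and 6.24 CPM at version 1 E14.5 batch 1, batch 2 and E17.5, on 4, 0 and 4 UMIs. In version 2 it was at 0.919, 2.37 and 9.29 CPM at the 3 stages, on 8, 22 and 207 UMIs. The slope was 0.69 ± 0.15 per day (edgeR adjusted p = 0.0155), where 4.9% of 11803 genes were called, 3.56% rising and 1.34% falling. It missed the threshold without version 2 E12.5 (0.69, adjusted p = 0.109) and without the kit term (0.66, adjusted p = 0.0702), and *Wnt5a* could not be tested without version 2 E17.5, so the trend rests on that library. *Sfrp1* (0.00 ± 0.10) and *Sfrp2* (-0.56 ± 0.21, adjusted p = 0.195) were not called.

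Within the other mesenchyme of the 2 version 1 E14.5 batches, 10 clusters held at least 30 cells in both, and *Sfrp2*, *Sfrp1* and *Rspo3* put the clusters in much the same order in either batch. The correlation of log2(CPM + 1) between batches over the 10 clusters was 0.99 for *Sfrp2*, 0.97 for *Sfrp1*, 0.92 for *Rspo3*, 0.75 for *Wnt5a*, 0.62 for *Rspo1* and 0.49 for *Dkk2*. These are descriptions, since the clusters of a batch share a library. *Rspo3* was highest in the cluster led by *Figf*, at 240 and 219 CPM in batch 1 and 2, and next in the cluster led by *Nkx2-5* and *Kazald1*, at 182 and 207. *Nkx2-5* is a known transcription factor of the splenic mesenchyme that adjoins the pancreas, and this cluster held little *Sfrp2*, at 22.7 and 15.4 CPM. The cluster led by *Cox4i2* and *Ndufa4l2* was lowest for *Rspo3*, at 0 and 8.25 CPM, and for *Sfrp1*, at 272 and 244. *Dkk2* reached 74.3 and 64.0 CPM in the cluster led by *Adrb3* and *Sfrp2*, and 66.9 and 71.5 in that led by *Adrb3* and *Barx1*.

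**Figure D5:**
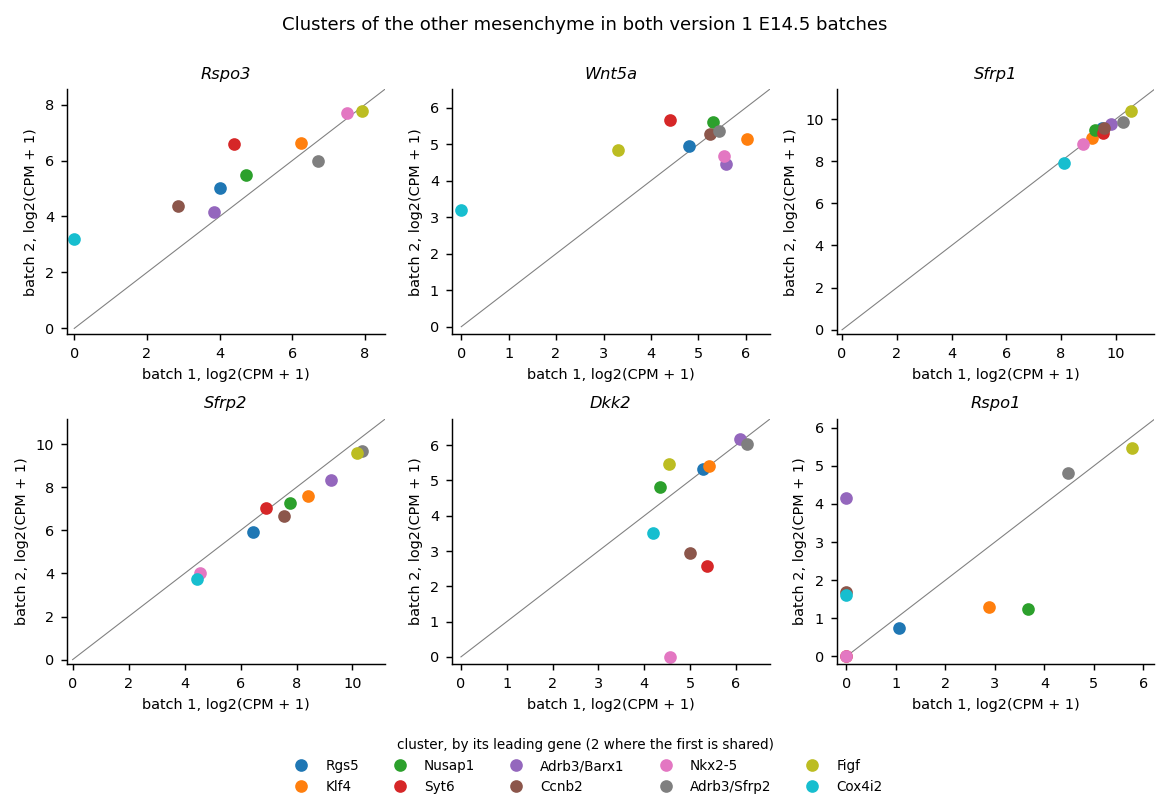
Levels of 6 members, as log2(CPM + 1), in the 10 clusters of other mesenchyme, with E14.5 batch 1 on the horizontal and batch 2 on the vertical axis and a line of equality. Points of *Sfrp1* lie close to the line, those of *Sfrp2* keep much the same order but lie mostly below it, as in the *Klf4* cluster at 339 against 189 CPM, and those of *Dkk2* and *Rspo1* scatter.

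Among mesothelial-like clusters, *Rspo1* and *Rspo3* at version 2 E12.5 ran from 52.5 to 110 CPM and from 82.7 to 174 over 6 clusters, and for both the highest was the cluster led by *Crabp1* and *Aldh1a2*, genes of retinoic acid handling. At version 2 E17.5 the cluster led by *Krt14* and *Slpi* (102 cells) was the highest of 4 for *Rspo1* (212 CPM), *Wnt5a* (75.0) and *Sfrp1* (131). The cluster led by *Igfbp2* and *Osr1* (604 cells) was the lowest for *Wnt5a* (25.4) and *Sfrp1* (31.6). These values have no replicate and no test.

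The genes most like each member over 109 profiles of class and library, out of 15168 genes, are given as a description, since profiles share libraries. *Rspo1* was most like *Klk14* (r = 0.91), *Aldh1a2* (0.90) and *Gjb5* (0.89), and *Wnt2b* was most like *Lrp2* (0.88), *Krt14* (0.85) and *Lrrn4* (0.84). *Rspo3* was most like *Wisp1* (0.90), and *Hoxc5* was also near it (0.87). *Sfrp1* was closest to *Gas1* (0.89), *Scarf2* (0.86) and *6330403K07Rik* (0.85), and *Sfrp2* to *Osr1* (0.88), *Cpz* (0.88) and *Dcn* (0.87). *Wnt5a* was closest to *Olfml1* (0.83), *Ogn* (0.81) and *Sfrp2* (0.81), and *Dkk2* to *Gm11627* (0.83), *Gm26523* (0.80) and *Abcc9* (0.80). *Wnt4* (*Kcnk3*, 0.65, *Psd*, 0.64, and *Smarca1*, 0.64) and *Sfrp5* (*Epha5*, 0.56, *Mro*, 0.54, and *Kif16bos*, 0.54) had no close match. Among the members themselves the highest pairs were *Rspo1* with *Wnt2b* (0.82), *Sfrp2* with *Wnt5a* (0.81), *Rspo3* with *Sfrp2* (0.79), *Rspo3* with *Dkk2* (0.78), and *Rspo1* with *Sfrp2* and with *Rspo3* (0.77 each).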

How the data were processed

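UMI counts per gene and cell were used as deposited. The authors sequenced 10x Chromium 3′ libraries and, per the submitters' processing notes, made the counts with Cell Ranger 1.1 and Cell Ranger 2.1 on mm10. The Fev-Cre matrix without reporter sequences holds the same cells and was not used. The 10 genes and the lists were chosen with earlier results of these data known, and *Rspo1*, *Sfrp1* and *Sfrp2* values in mesenchymal clusters were among those results.

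Cells with 200 or more genes were clustered per kit or line with leidenalg 0.10.2 (resolution 1, library and depth regressed out, cell-cycle genes left out) under Python 3.11.15. Clusters were named from at least 3 markers, with a minimum score on the log2 scale of 1.5 for mesothelial-like and 1 for VSM-like clusters. Stromal clusters that passed as neither, with a mesothelial score of at least 0.5, were those labelled as having markers of both kinds. A cell was a doublet where markers of another compartment reached 40% of their usual share. Classes of 20 or more cells in a library were summed and tested with edgeR 4.0.16 (quasi-likelihood test, TMM scaling, low counts filtered, Benjamini-Hochberg adjustment) in R 4.3.3. Class comparisons had the library as a block, since both classes come from the same suspension, and were called at an adjusted p under 0.05 and at least 2-fold, and trends used kit as a term and no fold limit. Intervals on levels and shares cover counting error only. Data were also simulated from the mean level of each gene in these sums, with a fixed dispersion of 0.05 and no library or kit effects. The planted differences between classes were at least 1.5 on the log2 scale, and planted slopes had fixed sizes too. There 93.5% of 200 changed genes were recovered for mesothelial-like cells against other mesenchyme and 48.5% for the change of that difference with stage. Recovery of smaller changes, or under the spread of the real libraries, was not tested. The text names every tested one of the 10 genes in each comparison, the 3 genes most correlated with each that reaches 10 CPM (1 for *Rspo3* is not reported here), and at most 3 called genes per pathway list and direction. Alternatives were DESeq2 1.42.0, no filter, each library left out, single kits (Fev-Cre counted with version 2) and Leiden resolution 2. Others were a 500-gene minimum, doublets kept, no block, no kit term, Fev-Cre added and other depths of thinning.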

Additional observations from a re-analysis of the deposited data

Results flagged for a closer look

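The difference between mesothelial-like cells and other mesenchyme changed with stage for 3 genes when the change itself was tested (edgeR quasi-likelihood test of the product of class and stage, library as a block, 6 Swiss Webster libraries). The slopes of the log2 difference per embryonic day were -1.49 for *Rspo3*, -0.99 for *Wnt4* and 0.55 for *Wnt5a*. These were 3 of the 10 members tested, where 3.46% of 12376 genes were called. The *Rspo3* call held in all 14 alternatives, whereas that of *Wnt4* was lost in 3 of 14 and that of *Wnt5a* in 2 of 14. Both were lost when stromal cells with *Epcam*, or those with markers of both kinds, were counted as other mesenchyme.

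Endothelial-like and neural-like cells entered no comparison, and 4 members were above the background there. Background is the upper 95% Poisson bound in immune-like or erythroid-like cells of the same library, and sums with under 10 UMIs of the gene were not considered. *Sfrp1* was above it in neural-like cells of 6 libraries, at 29.3 to 367 CPM, the highest being the 20 cells of version 1 E17.5, and in endothelial-like cells of 2 libraries, at 213 CPM in version 1 E12.5 and 7.13 in version 2 E17.5. *Dkk2* was above it in endothelial-like cells of 2 version 2 libraries, at 11.1 CPM at E12.5 and 19.5 at E17.5, where the background bound was 2.70 and 0.582. *Rspo3* was above it in endothelial-like cells of version 2 E12.5, at 8.43 CPM against a bound of 3.999. *Sfrp5* was above it in neural-like cells of version 2 E17.5, at 11.4 CPM on 10 UMIs. These values had no test between libraries.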

How the results depend on the processing

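No called value of a member changed sign under any alternative. Of 1134 values of single members under alternatives, 1065 kept their side of the threshold, 53 lost a call and 16 gained one, and 44 values that were not called in either setting changed sign. The alternatives with stromal cells of both marker kinds, or with stromal cells with *Epcam*, added back were chosen after seeing the data.

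The replicate block pairs the classes of a library. With no replicate block, which also changes which genes pass the filter, the members called went from 6 to 3 for mesothelial-like cells against other mesenchyme (*Wnt5a* and *Sfrp1* lost the call and *Rspo2* was not tested), from 3 to 1 for VSM-like cells (*Wnt4* and *Dkk2* lost it) and from 3 to 1 for the endocrine lineage (*Sfrp1* lost it and *Sfrp5* was not tested). Against epithelium *Wnt4* lost its call in other mesenchyme (adjusted p = 0.0641), *Rspo2* and *Wnt2b* were not tested there, and *Rspo2* and *Dkk2* were not tested for mesothelial-like cells. Leaving out 1 library gave 1 to 3 calls for the endocrine lineage (1 without version 2 E17.5), and version 1 alone gave 1. In other mesenchyme the count with stage was 1, and 2 with DESeq2, with no filter or with Fev-Cre added, and 0 to 3 with 1 library left out (0 without version 1 E12.5 or E14.5 batch 2, 2 without batch 1, 3 without version 1 E17.5). In ductal-like cells it was 1, and 2 with no filter, 0 with no kit term and 0 to 1 with 1 library left out (0 without version 2 E12.5 or E17.5). The change of the class difference with stage went from 3 calls to 1 when either set of stromal cells was added to other mesenchyme. The cause of these changes was not tested.

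Shares of cells with a UMI move with depth. Without thinning, the median shares rose from 18.6% to 37.7% (*Rspo1*), 11.9% to 23.8% (*Rspo3*), 1.53% to 4.01% (*Wnt2b*) and 26.7% to 45.4% (*Sfrp2*) in mesothelial-like cells, 6.69% to 13.6% (*Wnt5a*) and 4.55% to 8.53% (*Dkk2*) in other mesenchyme, and 5.17% to 11.3% (*Wnt4*) in alpha-like cells. At 1000 UMIs *Wnt2b* was at 1.06%, *Wnt5a* at 3.84% and *Dkk2* at 2.46%. E17.5 against E12.5 alone was not run for other mesenchyme and ductal-like cells, which leave no residual degrees of freedom.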

Other observations

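The version 2 stromal clusters labelled as having markers of both kinds, which entered neither class, held 999 cells at E12.5 and 63 at E14.5. *Rspo3* was at 80.9 and 73.9 CPM in them and *Rspo1* at 56.8 and 42.6. *Dkk2* was at 13.3 and 22.7 CPM, *Wnt5a* at 17.7 and 34.1, *Sfrp1* at 715 and 290.0 and *Sfrp2* at 46.4 and 162. At E12.5 the *Rspo1*, *Rspo3*, *Dkk2*, *Wnt5a* and *Sfrp1* values lay between those of mesothelial-like cells (80.5, 124, 3.28, 8.50 and 579 CPM) and other mesenchyme (1.961, 8.74, 22.8, 32.1 and 1058 CPM) of the same library, whereas *Sfrp2* was above both (36.9 and 20.3 CPM). At E14.5, where other mesenchyme held 22 cells, *Wnt5a* too was above both classes, and the other genes kept these positions. The cells with markers of both kinds were set apart by their markers, so these values have no test.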
